A study of Homo sapiens and Homo sapiens
Mus with 12 samples.

Results

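FOXK1 and NFE2L3 are 2 genes for human transcription factors that were described here across RNA-seq libraries of UM-UC-3, an advanced bladder cancer (BC) cell line, after knockdown of CDH11, the gene for the cell adhesion protein cadherin-11. They were chosen by their measured values, namely lower counts in CDH11 KD cultured cells and higher counts in CDH11 KD xenograft tumor tissues than in shCtrl. Those differences from shCtrl, including those of each hairpin, are therefore given as a description, without a test. The members are 2 of 21466 genes listed for the cultured cells and of 26813 human genes listed for the tumors. Both passed the filter on low counts in each system, where 9859 and 9184 genes remained.

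UM-UC-3 cells carried lentiviral constructs with GFP and a nonsilencing shRNA (shCtrl) or 1 of 2 shRNAs against CDH11 (sh#1 and sh#2), and GFP-positive cells were collected by sorting, so all groups carried a hairpin and GFP. Cultured cells were sequenced as 3 libraries per construct. The same constructs were compared in subcutaneous tumors of male BALB/cAJcl-nu/nu mice, which lack a normal thymus, injected at 5 weeks of age and sampled 4 weeks later, with 5 tumors per construct. Nothing in the sources used here says that the 3 cultured libraries of a construct came from separate cultures, so p-values there measure only the spread between these libraries.

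FOXK1 is a forkhead factor that binds DNA and recruits the SIN3 and histone deacetylase complex. It is known as a repressor of autophagy genes when mTOR is active, and as an activator of glycolytic genes together with its close relative FOXK2. NFE2L3 (NRF3) belongs to the cap'n'collar basic leucine zipper family with NFE2L1 and NFE2L2. These factors bind antioxidant response elements as dimers with small MAF proteins, and NFE2L3 is held in the endoplasmic reticulum membrane until it is released and cleaved.

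Both genes lie on chromosome 7, with starts 21.47 Mb apart. In GENCODE annotation of hg38, FOXK1 (ENSG00000164916) spans 4682295 to 4771442 on the plus strand, with 9 exons in its canonical transcript of 11194 nt, and overlaps the lncRNA gene ENSG00000287665 on the same strand. NFE2L3 (ENSG00000050344) spans 26152198 to 26187137 on the plus strand, with 4 exons and 3740 nt, and its end overlaps transcript forms of HNRNPA2B1, an RNA-binding protein gene on the minus strand. The 250 bases before the RefSeq start of each gene (GRCh38.p14, plus strand, chr7:4682045-4682294 for FOXK1 and chr7:26151948-26152197 for NFE2L3) are shown to compare the promoters of 2 genes chosen for moving together. Capitals mark GC boxes (GGGCGG, on either strand) and the E-box CACGTG.
FOXK1: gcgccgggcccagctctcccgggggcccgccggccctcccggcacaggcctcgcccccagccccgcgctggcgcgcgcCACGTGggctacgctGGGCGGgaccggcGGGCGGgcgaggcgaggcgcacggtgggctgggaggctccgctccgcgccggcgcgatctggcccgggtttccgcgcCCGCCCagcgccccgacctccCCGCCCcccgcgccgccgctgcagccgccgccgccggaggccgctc
NFE2L3: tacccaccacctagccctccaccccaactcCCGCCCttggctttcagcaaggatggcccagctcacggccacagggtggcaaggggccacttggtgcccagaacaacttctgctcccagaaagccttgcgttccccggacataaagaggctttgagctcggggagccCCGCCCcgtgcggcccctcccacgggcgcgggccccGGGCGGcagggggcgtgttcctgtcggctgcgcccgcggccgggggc

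Both sequences were rich in G and C, at 85.6% in FOXK1 and 70.8% in NFE2L3, against a median of 58% over 35116 RefSeq promoters of the same length. The GC box, which Sp family factors can bind, was found 4 times in FOXK1 and 3 times in NFE2L3, and 42.6% of all promoters held it. The E-box was found once in FOXK1 and not in NFE2L3, with 6.34% of promoters holding it. The letters GCGTG, 1 form of the hypoxia response core, were found once in NFE2L3 and not in FOXK1, with 32.2% holding them. The other form, ACGTG, was not searched, and the E-box CACGTG of FOXK1 contains it. Neither sequence held the letters of a TATA box (TATAAA, 10.7% of promoters), an antioxidant response element core (TGACNNNGC, 10.9%), an AP-1 site (TGANTCA, 6.57%), a forkhead core (GTAAACA, 2.98%) or an ETS site (CCGGAAG, 8.52%), searched on both strands. A match is a description of letters and not evidence of binding.

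Total counts ranged from 2273182 to 2777019 in the cultured libraries. In the tumors they ranged from 414849 in sh#1 tumor 1 to 1248977 human counts, and counts assigned to mouse genes made up 10.4% to 30.02% of each tumor, the highest share also in sh#1 tumor 1. A single mouse gene, CT010467.1, held 21.8% to 67.4% of the mouse counts, so this share is an uncertain measure of host tissue. The deposited barcode list gives each tumor group as a library mix of its own, so that construct and mix cannot be told apart in tumors. CDH11 itself had 2 to 4 counts in cultured shCtrl libraries, 0 or 1 with sh#1 and 0 to 2 with sh#2, too few to test. The paper reports a significant reduction of both its mRNA and its protein in the UM-UC-3 cells with CDH11 KD. In tumors CDH11 had 5 to 32 counts in shCtrl, 1 to 9 in sh#1 and 2 to 14 in sh#2, with a log2 fold change in CDH11 KD of -1.13 (SE 0.33) that missed the threshold (edgeR quasi-likelihood, q value 0.112). By hairpin it fell with sh#1 (-1.67, SE 0.40, q value 0.026), and the difference of -0.73 (SE 0.35) with sh#2 did not pass the test (q value 0.347). Of the markers of the cell type, KRT8, KRT18, VIM and FN1 were present in every library, and the urothelial factor GATA3 had 2 to 6 counts in culture and 1 to 7 in tumors. EPCAM, CDH1, UPK1B and UPK3A had 0 counts in every cultured library, UPK2 and KRT5 had 0 or 1, KRT19 had 0 to 3 and UPK1A had 0 to 20.

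In cultured cells, FOXK1 was lower in all CDH11 KD libraries than in any shCtrl library. Levels are given as normalized CPM, that is CPM after TMM scaling of the library sizes. FOXK1 measured 39.8, 36.1 and 37.7 normalized CPM in shCtrl (101, 88 and 99 counts). It measured 23.4, 23.9 and 30.6 with sh#1 (57, 55 and 87 counts) and 22.9, 11.5 and 17.0 with sh#2 (49, 24 and 35 counts). The 3 groups did not overlap, in the order shCtrl, sh#1, sh#2, with means of 37.9 ± 1.84, 26.0 ± 4.06 and 17.1 ± 5.70 (SD, n = 3 each). Both members were chosen for this fall, and the share of all genes with groups apart in this way was not counted. The CDH11 KD level was 57.8% of that in shCtrl, a log2 fold change of -0.79 (SE 0.20).

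NFE2L3 showed the same order of groups in culture. It measured 27.2, 25.4 and 21.7 normalized CPM in shCtrl (69, 62 and 57 counts). With sh#1 it measured 20.5, 19.1 and 15.9 (50, 44 and 45 counts), and with sh#2 13.5, 14.8 and 13.6 (29, 31 and 28 counts). Again the groups did not overlap, with means of 24.8 ± 2.78, 18.5 ± 2.39 and 13.99 ± 0.711 (SD, n = 3 each). The CDH11 KD level was 66.0% of shCtrl, a log2 fold change of -0.60 (SE 0.17). Because reads were not compared by transcript length, the levels of FOXK1 and NFE2L3 are not compared with each other.

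In tumors, both genes were higher in CDH11 KD. FOXK1 measured 38.5, 33.5, 43.3, 40.9 and 49.0 normalized CPM in shCtrl tumors 1 to 5, from 31 to 48 counts. It measured 55.5, 61.0, 43.5, 73.9 and 71.7 in sh#1 tumors (20 to 71 counts) and 76.8, 55.1, 43.1, 53.4 and 59.2 in sh#2 tumors (31 to 54 counts). Of the 10 CDH11 KD tumors, 8 lay above the highest shCtrl tumor, and sh#1 tumor 3 and sh#2 tumor 3 lay within the shCtrl range. Both members were chosen for this rise, and the share of all genes placed in this way was not counted. The means were 41.1 ± 5.74, 61.1 ± 12.4 and 57.5 ± 12.3 (SD, n = 5 each), and the CDH11 KD level was 145% of shCtrl, a log2 fold change of 0.54 (SE 0.16).

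NFE2L3 measured 25.7, 18.4, 20.5, 26.7 and 21.4 normalized CPM in shCtrl tumors 1 to 5 (14 to 32 counts). It measured 30.5, 29.4, 24.4, 37.0 and 31.3 in sh#1 tumors (11 to 34 counts) and 61.1, 55.1, 46.9, 38.4 and 45.8 in sh#2 tumors (24 to 49 counts). All sh#2 tumors lay above all sh#1 tumors, by a small margin of 38.4 in the lowest sh#2 against 37.0 in the highest sh#1 tumor. The share of all genes with the hairpins apart in this way was not counted. Of the 10 CDH11 KD tumors, 9 lay above every shCtrl tumor, the exception being sh#1 tumor 3. The means were 22.5 ± 3.52, 30.5 ± 4.50 and 49.5 ± 8.79 (SD, n = 5 each). The CDH11 KD level was 174% of shCtrl, a log2 fold change of 0.80 (SE 0.20). In bulk samples, fewer cells of a type and less RNA per cell cannot be told apart.

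**Figure D1:**
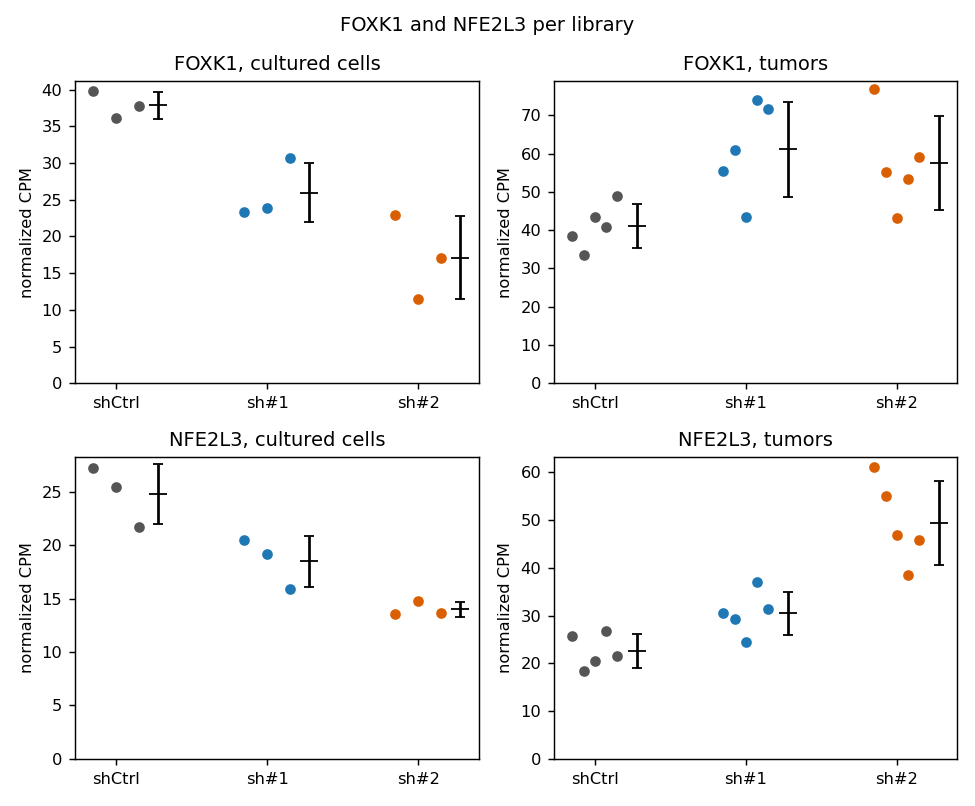
Normalized CPM of FOXK1 (top) and NFE2L3 (bottom) in each cultured library (left, n = 3 per construct) and tumor (right, n = 5), with axes starting at 0. Points are libraries in replicate order, and bars are the mean ± SD. The CDH11 KD libraries lie below shCtrl in culture, and all 10 CDH11 KD tumors lie above the shCtrl mean for both genes.

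The counts behind these levels limit their precision. Counting error alone gives a coefficient of variation of 17.4% for FOXK1 in cultured sh#2, where 33.3% was observed, and of 18.5% for NFE2L3 in the same libraries, where 5.08% was observed. The small spread of NFE2L3 there is thus below counting error. In tumors the observed values were 13.97% to 21.4% for FOXK1 and 14.8% to 17.8% for NFE2L3 within the 3 groups, against counting values of 15.3% to 16.3% and 16.6% to 22.4%.

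The comparison of both hairpins with each other was not used to choose the genes. In cultured cells, FOXK1 was higher with sh#1 than with sh#2, with a log2 difference of 0.61 (SE 0.19, 95% interval 0.23 to 0.99, edgeR quasi-likelihood q value 0.0152). At a q value under 0.05 this contrast called 11.2% of all genes as higher and 13.5% as lower, so calls of this kind were common. The call was lost with DESeq2 (q value 0.0702), without sh#1 replicate 3 (log2 difference 0.46, q value 0.129) and without sh#2 replicate 2 (0.39, q value 0.186). For NFE2L3 the log2 difference was 0.39 (SE 0.21, 95% interval -0.01 to 0.80) and did not pass the test (q value 0.168). With total counts as the only scaling, that difference was 0.58 and passed it (q value 0.0263).

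In tumors, FOXK1 differed between sh#1 and sh#2 by a log2 value of 0.12 (SE 0.17, 95% interval -0.22 to 0.46, edgeR q value 0.876), which did not pass the test. NFE2L3 was lower in sh#1 than in sh#2 tumors by a log2 difference of -0.69 (SE 0.18, 95% interval -1.05 to -0.32, q value 0.0762), past the threshold of 0.1 used for tumors. This contrast called 0.642% of genes higher and 0.544% lower. Leaving out 1 tumor kept a difference of -0.77 to -0.60, but the q value passed 0.1 without any of sh#1 tumors 1, 2, 3 and 5 or sh#2 tumors 1, 2 and 3, reaching 0.233 without sh#2 tumor 1, and with DESeq2 it was 0.107. The share of mouse counts was 10.4% to 30.02% in sh#1 and 13.0% to 18.8% in sh#2 tumors, and with the mouse to human ratio as a covariate the difference was -0.69 (q value 0.0821), and -0.69 (q value 0.0809) with that ratio taken without CT010467.1.

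Relative to shCtrl, the hairpins gave FOXK1 log2 fold changes in culture of -0.53 (SE 0.16) for sh#1 and -1.14 (SE 0.18) for sh#2, and in tumors of 0.60 (SE 0.18) and 0.48 (SE 0.18). For NFE2L3 they were -0.43 (SE 0.18) and -0.82 (SE 0.20) in culture, and 0.41 (SE 0.20) and 1.10 (SE 0.19) in tumors. These 4 contrasts per gene share their shCtrl libraries within a system.

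FOXK2, the paralog of FOXK1, fell in cultured cells as well. It measured 59.8, 63.6 and 75.5 normalized CPM in shCtrl, 47.6, 48.2 and 52.8 with sh#1, and 37.3, 36.3 and 25.3 with sh#2. Its 3 groups also did not overlap, and the share of all genes with groups apart in this way was not counted. The log2 fold change in CDH11 KD was -0.67 (SE 0.17, edgeR q value 0.0141), and the call was lost without shCtrl replicate 3. Its level was higher with sh#1 than with sh#2 by a log2 difference of 0.59 (SE 0.14, q value 0.0015). In tumors FOXK2 measured 42.7 ± 7.99 normalized CPM in shCtrl (SD, n = 5) and 50.1 ± 10.8 in CDH11 KD (n = 10). That log2 difference of 0.24 (SE 0.16) did not pass the test (q value 0.567).

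NFE2L1, the relative of NFE2L3 that raises proteasome genes when the proteasome is impaired, moved the other way in culture. It rose from 33.7 ± 1.97 to 47.8 ± 7.70 normalized CPM (SD, n = 3 and 6; log2 fold change 0.51, SE 0.15, edgeR q value 0.0263). The call was lost without any single shCtrl replicate and with total counts as scaling. NFE2L2 (NRF2), the main factor of the antioxidant response, had a log2 difference of 0.13 (SE 0.15, q value 0.584) in CDH11 KD culture, and was higher with sh#1 than with sh#2 by 0.38 (SE 0.13, q value 0.0232). In tumors neither passed the test, with log2 differences of 0.05 (SE 0.16, q value 0.940) for NFE2L1 and 0.20 (SE 0.12, q value 0.526) for NFE2L2.

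**Figure D2:**
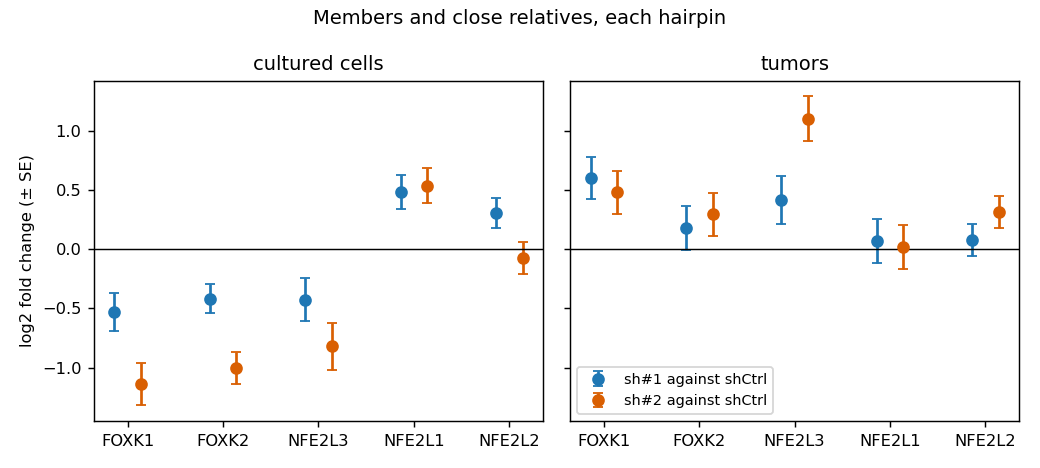
Log2 fold change of sh#1 (blue) and sh#2 (orange) against shCtrl for both genes and their close relatives in cultured cells (left) and tumors (right). Bars are the SE of the edgeR fit. In culture FOXK1, FOXK2 and NFE2L3 lie below 0 and NFE2L1 above 0, and in tumors NFE2L3 with sh#2 is the highest point at 1.10.

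Other genes of both pathways were taken from 5 lists with 62 genes in all. The lists were chosen with earlier results of these data known, so their shares of calls are descriptions and no test of the pathways. In CDH11 KD cultured cells 12 of the 58 tested were called higher (20.7%) and 4 lower (6.90%), against 9.12% and 8.32% of all genes, with a median log2 fold change of 0.07 against 0.00 over all genes. The number called higher was 6, 5 and 7 without shCtrl replicates 1, 2 and 3, and that called lower was 2 without shCtrl replicate 3. For fits with a cultured library or a tumor left out, the share of all genes called was not counted. With total counts as scaling the median of all genes moved to -0.16, 8 related genes were called higher and 10 lower, and the share of higher among all calls went from 52.3% to 27.3%. In tumors 0 of the 54 tested were called in either direction by edgeR and by DESeq2, 5 had an unadjusted p under 0.05 with edgeR, and 0.697% of all genes were called higher and 0.817% lower. Without shCtrl tumor 5, 2 related genes were called higher in tumors. The share of higher among all tumor calls went from 46.0% to 31.3% with total counts.

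Of the FOXK and cap'n'collar factors and small MAF partners, 3 of 7 tested rose in culture and 1 fell. Of all genes, 9.12% were called higher and 8.32% lower. MAFF, a small MAF protein with which cap'n'collar factors pair on DNA, rose from 18.6 ± 0.916 to 82.2 ± 4.67 normalized CPM (SD, n = 3 and 6), with a log2 fold change of 2.14 (SE 0.12, edgeR q value 1.77e-09). BACH1, a repressor that competes for the same elements, rose by a log2 value of 0.55 (SE 0.18, q value 0.0366), a call lost under 6 of 16 alternatives, among them DESeq2, total counts, and leaving out shCtrl replicate 1 or 2 or sh#2 replicate 1. NFE2L1 was the third that rose and FOXK2 the one that fell. In tumors MAFF measured 35.8 ± 5.37 and 38.4 ± 14.03 (SD, n = 5 and 10), and its log2 difference of 0.06 (SE 0.18) did not pass the test (q value 0.931).

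Of 18 FOXK1 partners and regulators, 1 rose in culture and 2 fell, so that 16.7% were called, no more than over all genes (9.12% higher and 8.32% lower). SAP30, a subunit of the SIN3 corepressor complex, rose from 30.1 ± 0.213 to 70.4 ± 9.30 normalized CPM (SD, n = 3 and 6; log2 fold change 1.23, SE 0.13, edgeR q value 6.27e-06). The histone deacetylases HDAC1 and HDAC2 of the same complex fell, with log2 fold changes of -0.58 (SE 0.12, q value 0.00328) and -0.30 (SE 0.09, q value 0.0291). The HDAC2 call was lost under 5 of 16 alternatives, among them without any single shCtrl replicate or sh#2 replicate 3.

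Glycolytic genes known as FOXK1 targets had a median log2 fold change of 0.64 over 7 tested in culture with both hairpins as 1 group, and 3 were called higher. Of all genes, 9.12% were called higher and 8.32% lower. By hairpin, PKM was -0.12 with sh#1 and 0.58 with sh#2, PFKL was -0.0044 and 1.09, and LDHA was 0.07 and 0.82, and the difference between hairpins was not tested for these genes. HK2, which phosphorylates glucose, rose from 78.4 ± 10.96 to 293 ± 25.2 normalized CPM (SD, n = 3 and 6; log2 fold change 1.90, SE 0.11, edgeR q value 2.21e-09). PFKP, a phosphofructokinase, rose by a log2 value of 0.66 (SE 0.13, q value 0.00295). PDK1, which inhibits pyruvate dehydrogenase, rose by 1.03 (SE 0.25, q value 0.021), a call lost without any single shCtrl replicate. In tumors the median of 7 tested was 0.16 and none was called, and with sh#2 alone PFKP, PFKM and LDHA lay slightly below 0 (log2 -0.0094, -0.04 and -0.0040).

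Autophagy genes known to be repressed by FOXK factors had 4 called higher and 0 lower of 16 in culture, with a median log2 fold change of 0.20. Of all genes, 9.12% were called higher and 8.32% lower. Of the 16, 10 had a positive value. ATG16L1 missed the threshold narrowly on the lower side, with a log2 difference of -0.73 (SE 0.25, edgeR q value 0.0503). SQSTM1, a receptor for autophagy cargo, rose by a log2 value of 0.74 (SE 0.17, edgeR q value 0.0121) and MAP1LC3B, an autophagosome membrane protein, by 0.59 (SE 0.14, q value 0.00882). PIK3C3, a lipid kinase that starts autophagosome formation, rose by 0.72 (SE 0.21, q value 0.0252) and ATG12, a ubiquitin-like conjugate, by 0.40 (SE 0.12, q value 0.0283). Each of these 4 calls was lost without at least 1 shCtrl replicate, those of ATG12 and PIK3C3 also with total counts as scaling, and that of ATG12 also without sh#2 replicate 3. In tumors the median of 14 tested was 0.03.

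Of 10 genes for processing, turnover or known targets of NFE2L3, 1 rose and 1 fell in culture, close to the shares of all genes (9.12% higher and 8.32% lower). NGLY1, the glycanase that acts on cap'n'collar factors released from the endoplasmic reticulum, rose from 24.7 ± 3.09 to 98.8 ± 42.8 normalized CPM (SD, n = 3 and 6; log2 fold change 1.98, SE 0.44, edgeR q value 0.0176), a call lost without any single shCtrl replicate. VCP, the ATPase that extracts them from the membrane, fell by a log2 value of -0.50 (SE 0.09, q value 0.00133). Over the 5 lists, 6 of the 16 called genes kept their call under all alternatives, namely MAFF, HK2, PFKP, SAP30, HDAC1 and VCP.

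**Figure D3:**
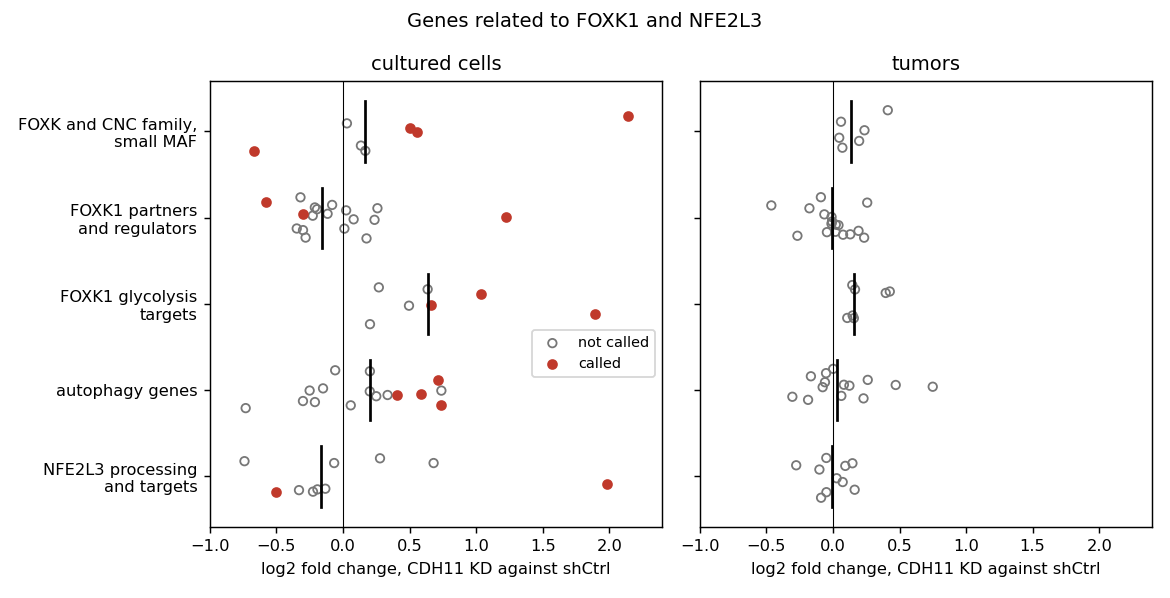
Log2 fold change of CDH11 KD against shCtrl for the tested genes of 5 lists in cultured cells (left, 58 genes) and tumors (right, 54 genes). Filled red points passed the test, open points did not, and black bars are the median of each list. The called points are 12 above and 4 below 0 in culture, and 0 in tumors.

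Neighbouring genes were compared to see whether FOXK1 and NFE2L3 moved apart from their surroundings. The 5 tested genes nearest on each side were taken for each member, and their calls are read against the 8.32% of all genes called lower in culture. For neighbours, the start is the lower coordinate of the gene, whatever its strand. Around FOXK1, 2 of 10 were called lower in culture, TTYH3 (a chloride channel family gene, log2 fold change -1.07, edgeR q value 5.74e-05) and GNA12 (a G protein subunit, -0.64, q value 0.0161), 1 was positive and the median was -0.48. The starts of TTYH3 and GNA12 lay far off, at -2050 and -1954 kb from that of FOXK1. The 1 positive gene was the nearest, at 93.3 kb between starts (log2 difference 0.41, not called). FOXK1 itself, from 4682295 to 4771442, covers most of that distance. In tumors 8 of the 10 around FOXK1 were positive with a median of 0.24, and 0 were called. Around NFE2L3, 1 of 10 was called lower in culture, the splicing regulator TRA2A (-1.37, q value 6.27e-06), with its start at -2647 kb. In culture 3 were positive and the median was -0.14, whereas in tumors 5 of 10 were positive, 0 were called and the median was -0.01. The overlapping HNRNPA2B1 had log2 differences of -0.12 (SE 0.08, q value 0.335) in culture and 0.20 (SE 0.09, q value 0.353) in tumors. By hairpin in culture it was -0.03 with sh#1 (edgeR q value 0.734) and -0.22 with sh#2 (q value 0.00231). In tumors all 10 CDH11 KD tumors lay above its shCtrl mean, and the share of all genes placed in this way was not counted. The mean of HNRNPA2B1 was 630 normalized CPM in CDH11 KD culture and 573 in CDH11 KD tumors, against 16.2 and 40.0 for NFE2L3. Whether HNRNPA2B1 reads entered the NFE2L3 counts was not tested. How overlapping and antisense reads were counted is not given in the sources used here.

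**Figure D4:**
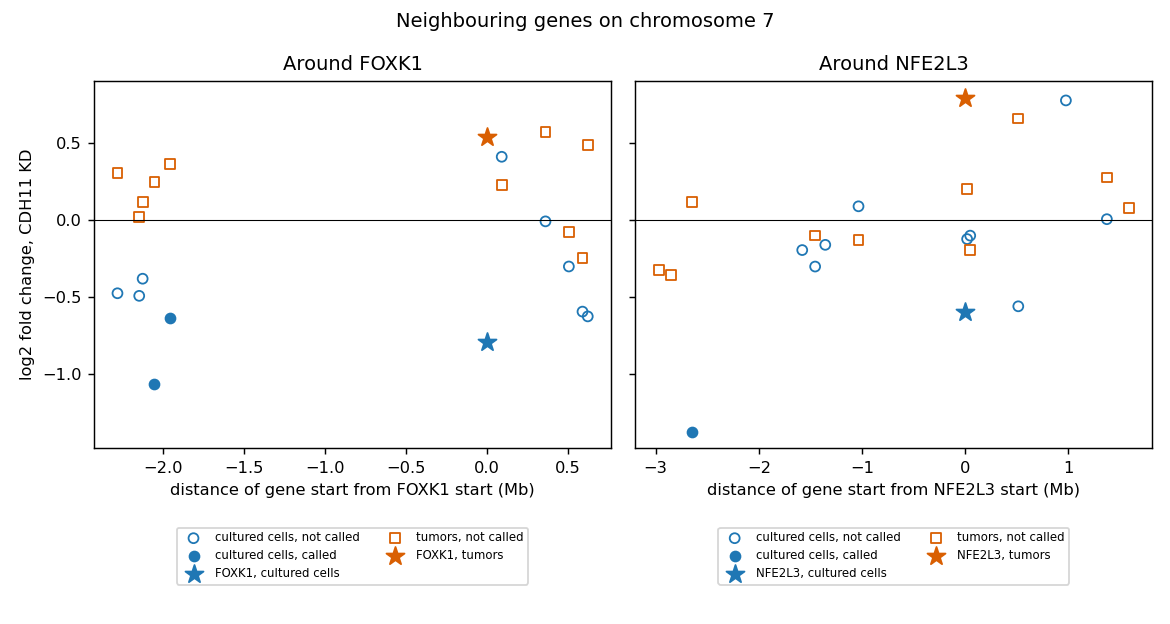
Log2 fold change of CDH11 KD against shCtrl for the 10 nearest tested genes around FOXK1 (left) and NFE2L3 (right), by distance of their start (lower coordinate) in Mb. Circles are cultured cells, squares tumors, filled symbols are called genes and stars the members. In culture 9 of 10 neighbours of FOXK1 lie below 0, and in tumors 8 of 10 lie above 0.

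The opposite direction in culture and tumors is what FOXK1 and NFE2L3 were chosen for, and their values are no test of it. Of the other genes among 8308 tested in both systems, those called lower in CDH11 KD culture and higher in CDH11 KD tumors were F2RL1, the protease-activated receptor gene (log2 fold changes -1.76 in culture and 0.84 in tumors), FHOD3, a formin gene (-1.40 and 1.36), NDUFB7, a subunit of respiratory complex I (-0.31 and 0.47), and VPS37B, a subunit of the ESCRT-I sorting complex (-0.62 and 0.78). With the members these were 6 of the 8308 genes. Of all genes tested in each system, 8.32% were called lower in culture and 0.697% higher in tumors. Whether 6 is more than these shares would give was not tested. The systems were sequenced on different instruments and mapped with different programs, and each was scaled on its own, so the difference between culture and tumors was not tested.

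VPS37B was also among the genes whose levels followed those of both members most closely, by the smaller of Pearson r over the 9 cultured libraries and over the 15 tumors, on log2 normalized CPM. For FOXK1 the order was JADE1, a scaffold of a histone acetyltransferase complex (r 0.76 in culture and 0.77 in tumors), VPS37B (0.85 and 0.75), B4GALT6, a galactosyltransferase (0.76 and 0.70), MINPP1, an inositol phosphate phosphatase (0.70 and 0.69), and KDM3B, a histone demethylase (0.76 and 0.67). For NFE2L3 it was VPS37B (0.77 and 0.81), the insulator protein gene CTCF (0.75 and 0.76), the autophagy protease gene ATG4C (0.73 and 0.80), NBPF14 (0.84 and 0.72) and RRBP1, a ribosome-binding protein of the endoplasmic reticulum (0.80 and 0.71). NBPF14 has near-identical copies, so its counts are uncertain. These values are descriptions: the libraries share group, depth and scaling. The members themselves correlated at 0.75 over the cultured libraries and 0.62 over the tumors. By the smaller r of both systems, FOXK1 was in place 15 of 8307 genes for NFE2L3 and NFE2L3 in place 10 for FOXK1. These values and places carry the fall in culture and the rise in tumors that chose both members. They are therefore no test of a link between the members, and VPS37B had the same fall and rise. After the group means were taken out, the correlations of the members were -0.49 over 9 cultured libraries and 0.60 over 15 tumors.

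Mouse Foxk1 had 0 to 2 counts per tumor and 8 in all over 6 tumors (3 in shCtrl, 0 in sh#1, where a count of 0 allows up to 28.4 CPM of mouse counts in the shallowest tumor, and 5 in sh#2), too few to test, and mouse Nfe2l3 was not analysed here. The pseudogene NFE2L3P1 on chromosome 18 had 1 count over all 15 tumors.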

How the data were processed

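Bulk RNA-seq was measured in cultured cells and xenograft tumors. The authors deposited raw counts per gene. Per the study's methods, reads of cultured cells were trimmed in CLC Genomics Workbench and mapped to hg38 with RaNAseq, and tumor reads were trimmed with trim galore and mapped with HISAT2; how reads were counted is not given in the sources used here. Human and mouse counts of each tumor came in separate tables. Over the cultured, human and mouse counts, 13 rows with no name, a repeated name or missing counts are not analysed here.

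The members and the lists of related genes were chosen with earlier results of these data known. Counts were fitted across all genes with edgeR 4.0.16 (R 4.3.3, quasi-likelihood, TMM, filterByExpr, Benjamini-Hochberg q values, thresholds of 0.05 in culture and 0.1 in tumors), with both hairpins as 1 group or as separate groups for sh#1 against sh#2. DESeq2 1.42.0 was an alternative, and limma 3.58.1 was loaded by edgeR. Log2 CPM for correlations used a prior count of 2. The script was tested on simulated data. Named were the members, paralogs, called genes of each list, the 5 most alike genes and called neighbours. In tumors the 5 libraries of a group came as columns of 1 sample record. The main fits did not pair libraries by replicate number. Whether same-numbered libraries shared handling is not given in the sources used here. No 2 replicates agreed within sampling noise. Total counts as scaling, and a mouse ratio without the gene CT010467.1, were added as alternatives after seeing the data. Mouse Foxk1 did not pass the filter, so its planned test was not made.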

Additional observations from a re-analysis of the deposited data

Results flagged for a closer look

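The human total of sh#1 tumor 1, 414849 counts, lay apart from the other sh#1 tumors by Dixon's 95% criterion, the 1 flag among 21 groups of 5 tumors examined, where chance flags about 1 in 20. FOXK1 and NFE2L3 in that tumor, at 55.5 and 30.5 normalized CPM, lay within the range of the other sh#1 tumors. Tested differences between hairpins (sh#1 minus sh#2) were found in culture for FOXK1 (log2 0.61), FOXK2 (0.59) and NFE2L2 (0.38), and in tumors for NFE2L3 (-0.69). FOXK1 and NFE2L3 were each lower in CDH11 KD culture and higher in CDH11 KD tumors than in shCtrl. For both, 6 of 6 cultured CDH11 KD libraries lay below and 10 of 10 CDH11 KD tumors above the shCtrl mean. In tumors, construct and library mix cannot be told apart. The log2 fold changes of culture and tumors differed by 1.33 for FOXK1 and 1.40 for NFE2L3. That difference was not tested, and it is what the genes were chosen for.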

How the results depend on the processing

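The log2 fold change of CDH11 KD stayed at -0.94 to -0.67 for FOXK1 and -0.75 to -0.53 for NFE2L3 over 16 alternatives in culture, and at 0.48 to 0.59 and 0.71 to 0.87 over 24 in tumors. With total counts as scaling, chosen after seeing the data, NFE2L3 in culture was -0.75, its hairpin difference 0.58 (q value 0.0263), and 10 related genes were called lower. For FOXK1 in culture, sh#1 minus sh#2 was 0.60 with DESeq2 (q value 0.0702) and 0.39 to 0.88 with 1 library left out, past the threshold in 7 of 9. For NFE2L3 in culture it was 0.31 to 0.50 with 1 library left out, past it in 0 of 9. For NFE2L3 in tumors it was -0.68 with DESeq2 (q value 0.107), -0.67 without a low-count filter (q value 0.146), and -0.77 to -0.60 with 1 tumor left out, past the threshold in 8 of 15. Related genes called in culture numbered 5 to 13 higher and 2 to 6 lower with 1 library left out, the 2 without shCtrl replicate 3, and 17 higher and 7 lower in a fit of 3 groups. In tumors 0 to 2 were called higher with 1 tumor left out, the 2 without shCtrl tumor 5. The share of all genes called was not counted for these fits or for the replicate block. A change in the lists therefore cannot be told from a change over all genes. Correlations of same-numbered libraries were -0.01 to 0.06 in culture (0 of 9 pairs over 0.1) and -0.10 to 0.13 in tumors (2 of 15). Correlations this low show no strong pairing by number, but cannot settle whether same-numbered libraries shared handling. With a replicate block the hairpin difference was 0.61 for FOXK1 in culture (q value 0.0154) and -0.67 for NFE2L3 in tumors (q value 0.113), and 10 related genes were called higher and 3 lower in culture, without the calls of BACH1, PIK3C3 and HDAC2. Counts of 11 to 101 per library limit the precision for both members. Mouse Foxk1 was given no alternatives.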
